A study of Macaca fascicularis with 86 samples.

Results

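The HOX genes are the homeobox genes of the HOXA, HOXB, HOXC and HOXD clusters. Members are rows of the expression table whose symbol is HOX, a cluster letter and a paralogue number, and 36 of 17023 genes are described here: 10 of HOXA, 10 of HOXB, 9 of HOXC and 7 of HOXD. No expression value entered this choice. HOX proteins are transcription factors that give cells their position along the head to tail axis. Within a cluster, genes with low paralogue numbers are known to be switched on earlier and further forward, and those with high numbers later and further back. CDX factors, WNT and FGF signals and retinoic acid act upstream of the clusters, and the MEIS and PBX proteins bind DNA together with HOX proteins.

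The RNA came from laser-captured regions of cryosectioned crab-eating macaque embryos during gastrulation, read by Geo-seq, a method for transcriptomes of small pieces of tissue. E18 embryo 1 (the first E18 embryo) gave 15 regions in 4 sections, E18 embryo 2 (the second E18 embryo) gave 35 regions in 6 sections and the E20 embryo gave 36 regions in 7 sections, 86 in all. The labels name no genotype, treatment, germ layer or cell type for any embryo, and they do not say at which end sections or sectors are numbered. Stage is given by 1 embryo at E20, and regions of an embryo share that embryo.

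Values are TPM (a share of the reads scaled for transcript length), which puts genes on a shared scale. Comparison between HOX genes with overlapping spans is uncertain, since the split of their reads is not given. TPM keeps no counts, and the depth of each region is unknown. Columns summed to between 495547 and 777987 TPM, and the cutoff below was not adjusted for that. A member is called detected at a TPM of at least 1. The median number of genes at that level was 10564 per region in the first E18 embryo, 12186 in the second E18 embryo and 9051 in the E20 embryo. Over 86 regions with embryo means removed, that number and the summed HOX level had a Pearson r of -0.114, given as a description. The summed TPM of 8 trophoblast and decidua markers ranged from 30.6 to 4821 in the first E18 embryo, from 11.97 to 197 in the second E18 embryo and from 9.45 to 1726 in the E20 embryo, and the part of such cells in the HOX values was not tested. A captured region is bulk RNA, in which fewer cells of a type and less RNA per cell cannot be told apart.

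The make-up of HOX RNA by cluster varied among the embryos. The summed TPM of all members had a lowest, median and highest value of 0.0813, 45.2 and 470 in the first E18 embryo, of 3.08, 47.2 and 957 in the second E18 embryo and of 0, 63.0 and 281 in the E20 embryo. The ranges overlapped, and each embryo had regions with a summed HOX level under 5 TPM. HOXA genes made up 47.5% of the summed HOX TPM in the second E18 embryo, 13.9% in the first E18 embryo and 3.37% in the E20 embryo. HOXB genes held 29.6%, 49.5% and 54.4% in the same order, and HOXC genes 14.1%, 33.1% and 41.6%. HOXD genes were the smallest share in each, with 8.75%, 3.56% and 0.645%. These shares rest on 1 embryo each and were not tested. In the second E18 embryo 6 of 35 regions held 85.2% of the HOXA TPM and 69.8% of all HOX TPM. Without those 6, chosen for their HOX sums after seeing the data, HOXA held 23.3% and HOXB 46.4%. The summed HOXA level was above that of HOXB in 10 of 35 regions of that embryo, and the regional medians were 11.1 TPM for HOXA and 23.3 TPM for HOXB. Detected members per region had a median of 9, 14 and 9 in the first E18 embryo, the second E18 embryo and the E20 embryo, and the highest regions had 24, 32 and 19. Over all regions of an embryo, 29, 35 and 30 of the 36 members were detected at least once. Such counts also depend on the number of regions and of genes detected per region, which differed between the embryos.

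**Figure D1:**
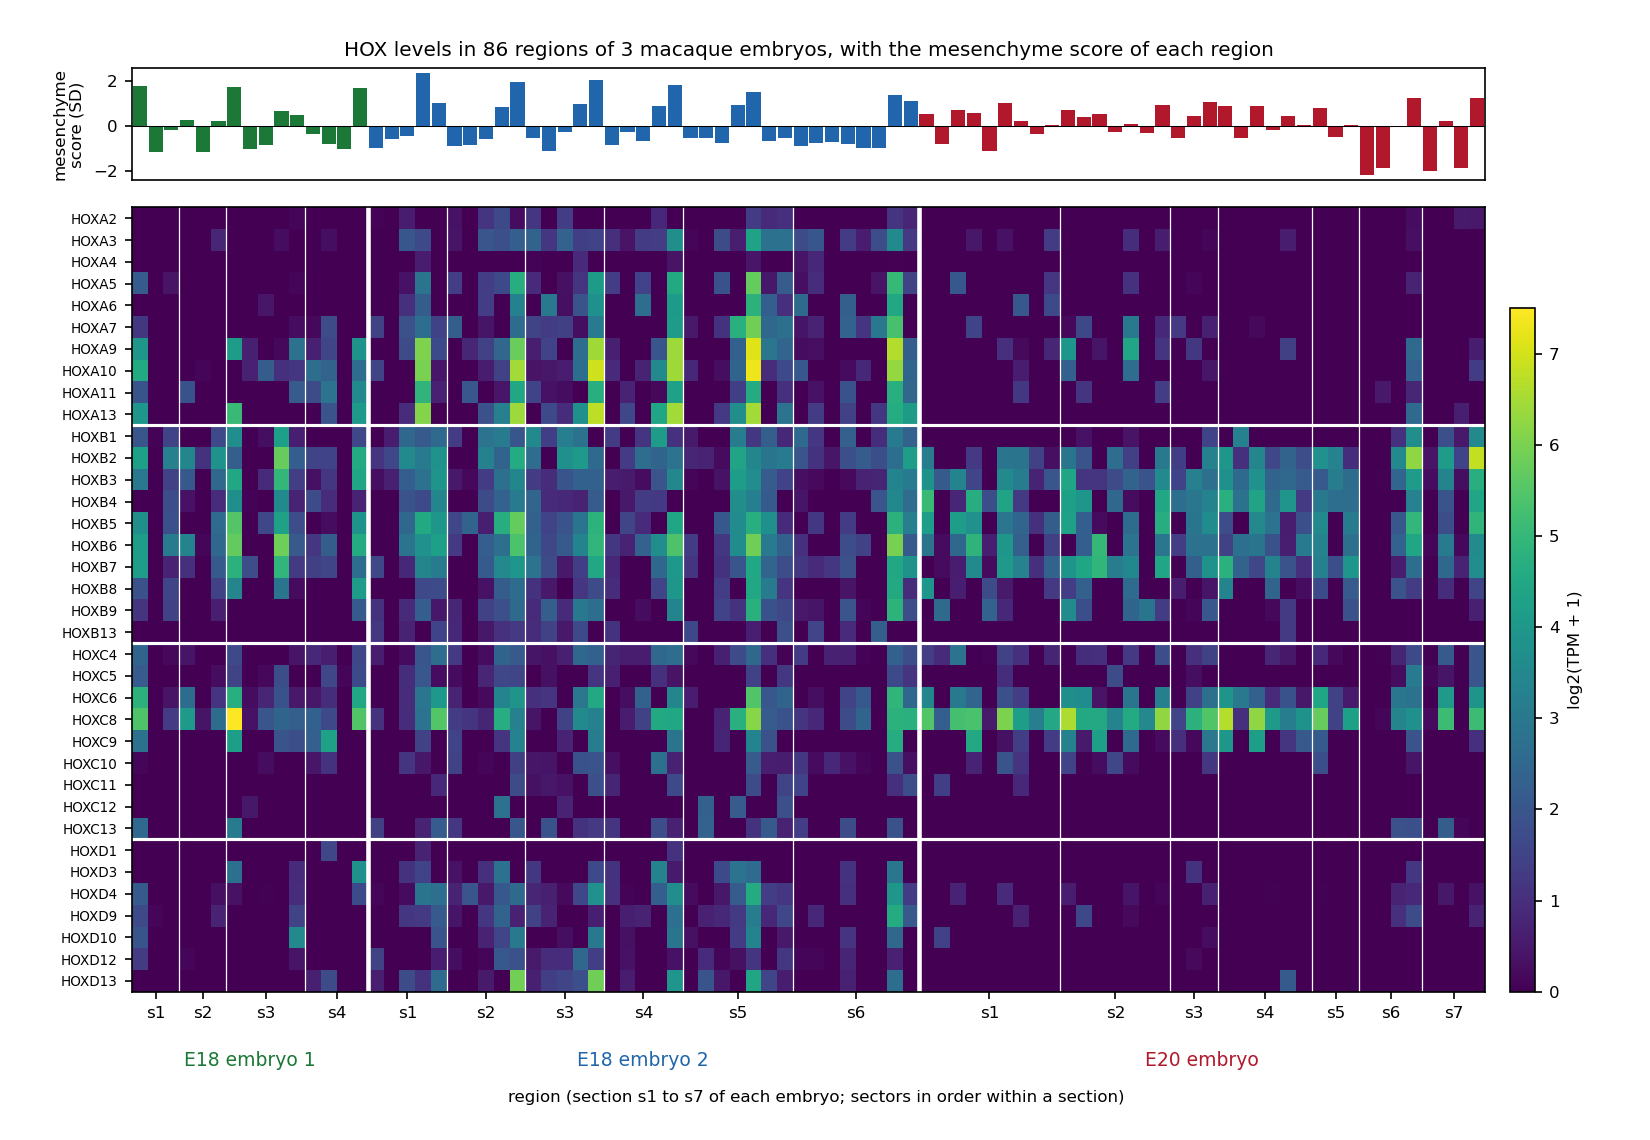
Each row is a HOX gene and each column a captured region, ordered by embryo, section (s1 to s7) and sector, with colour for log2(TPM + 1) and bars above for the mesenchyme score of the region in SD units. HOXA5 to HOXA13 and HOXD13 are brightest in a few columns of the second E18 embryo where the bars are high, while HOXB1 to HOXB9 and HOXC8 are seen in columns of all 3 embryos.

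HOXC8, a thoracic-level paralogue, was the most widely detected member, in 64 of 86 regions. Its lowest, median and highest TPM were 0, 3.85 and 180 in the first E18 embryo, 0, 1.78 and 70.6 in the second E18 embryo, and 0, 17.6 and 100.1 in the E20 embryo. HOXB2, which acts in the hindbrain, was detected in 63 regions, HOXB6 in 61, HOXB7 in 58, HOXB3 in 57 and HOXB5 in 53. HOXB2 reached 52.8, 23.3 and 112 TPM in the first E18 embryo, the second E18 embryo and the E20 embryo, with medians of 3.78, 4.39 and 2.23. HOXB6 reached 56.6, 62.0 and 30.99 TPM, with medians of 3.62, 3.401 and 4.03. The regions of the 3 embryos overlapped for each of these members, while the highest values lay far apart for HOXC8 and HOXB2.

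HOXA13, at the high-numbered end of its cluster and known for the hindgut, cloaca, distal limb and allantois, reached 108 TPM in the second E18 embryo, 32.8 in the first E18 embryo and 4.88 in the E20 embryo, where 1 of 36 regions had it at a TPM of at least 1. HOXA10 reached 159, 23.2 and 5.46 TPM and HOXA9 140, 16.2 and 20.2 in the second E18 embryo, the first E18 embryo and the E20 embryo. HOXD13, the high-numbered end of HOXD, reached 59.2 TPM in the second E18 embryo, 2.28 in the first E18 embryo and 3.34 in the E20 embryo. HOXA4 was detected in 0 regions, and HOXD1 in 2.

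Every other member is given by its highest TPM in the first E18 embryo, the second one and the one at E20, in that order. Of the low-numbered HOXA genes, HOXA2 reached 0.105, 2.15 and 0.466 TPM and HOXA3 0.763, 19.6 and 1.497 TPM. HOXA4 reached 0, 0.891 and 0 TPM. HOXA5 reached 3.55, 51.7 and 3.17 TPM, HOXA6 0.380, 27.2 and 3.23 TPM, HOXA7 2.34, 57.5 and 7.17 TPM and HOXA11 10.8, 29.3 and 1.58 TPM. These HOXA members were highest in the second E18 embryo. In HOXB, HOXB1 reached 17.96, 16.6 and 12.1 TPM, HOXB3 30.5, 17.5 and 25 TPM, HOXB4 12.4, 12.02 and 33.1 TPM, HOXB5 44.3, 52.3 and 30.5 TPM and HOXB7 29.5, 21.5 and 29.5 TPM. HOXB8 reached 16.8, 22.4 and 14.4 TPM, HOXB9 3.38, 27.8 and 11.2 TPM and HOXB13 0, 3.81 and 1.41 TPM. HOXB13 stayed under 5 TPM in every region. In HOXC, HOXC4 reached 4.31, 5.44 and 6.30 TPM, HOXC5 3.45, 3.10 and 7.58 TPM, HOXC6 27.2, 43.0 and 20.3 TPM and HOXC9 18.6, 23.8 and 22.1 TPM. HOXC10 reached 1.13, 5.81 and 2.84 TPM, HOXC11 0, 2.55 and 1.64 TPM, HOXC12 0.405, 6.02 and 0 TPM and HOXC13 7.41, 4.10 and 3.62 TPM. In HOXD, HOXD1 reached 2.01, 1.09 and 0 TPM, HOXD3 12.5, 9.32 and 1.26 TPM, HOXD4 3.34, 23.5 and 0.910 TPM, HOXD9 2.16, 23.4 and 2.29 TPM, HOXD10 11.04, 9.39 and 1.76 TPM and HOXD12 1.54, 4.67 and 0.131 TPM. All 6 of these HOXD genes stayed under 5 TPM in the E20 embryo.

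**Figure D2:**
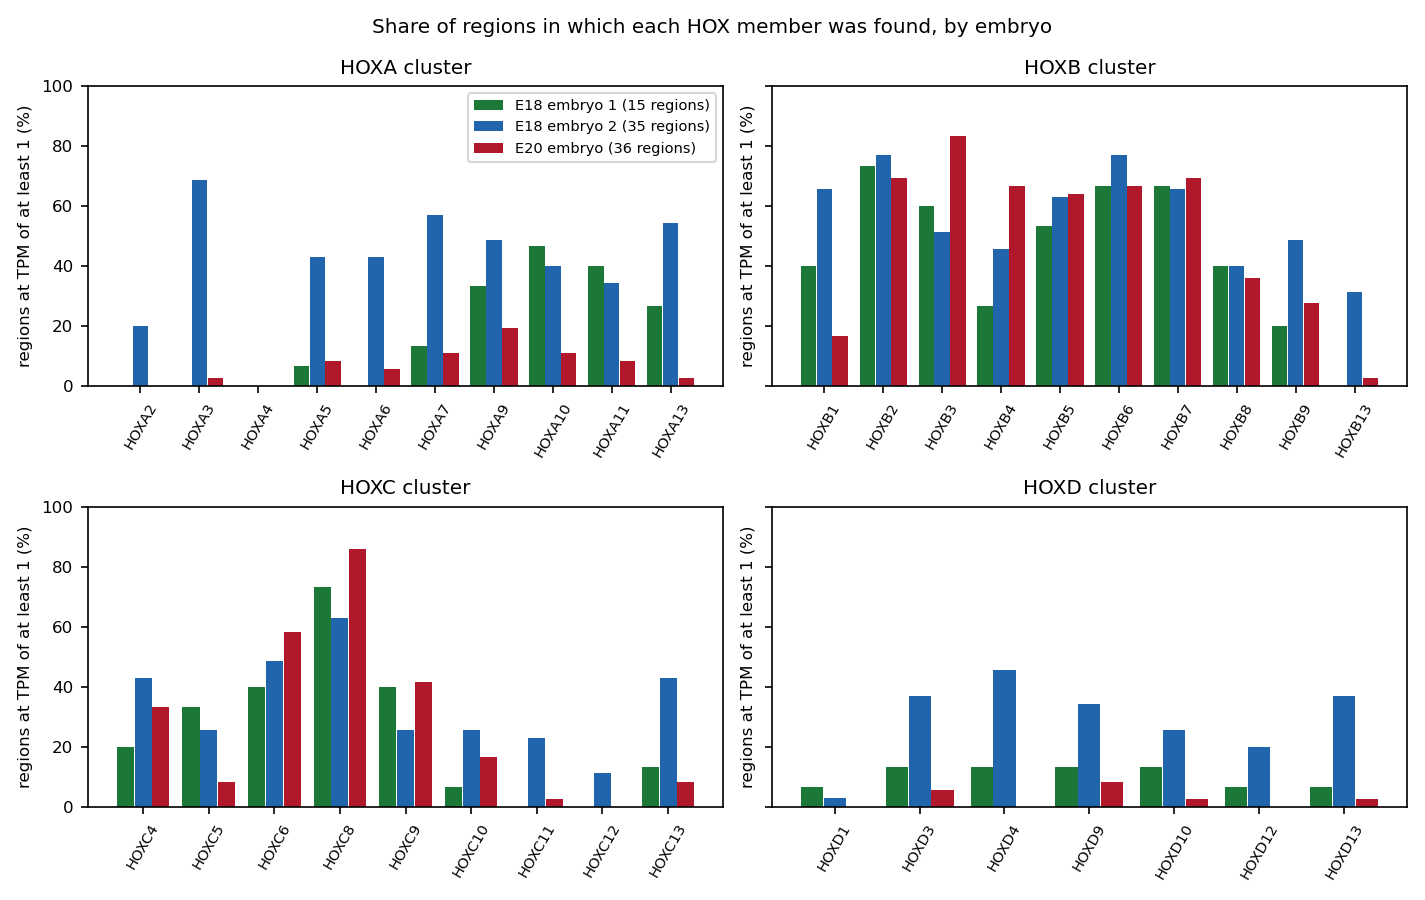
Bars give the percent of regions of an embryo with a TPM of at least 1 for each member, in 4 panels by cluster. HOXB2, HOXB3, HOXB5, HOXB6, HOXB7 and HOXC8 are above 50% in all 3 embryos, while HOXA and HOXD members have their highest bar in the second E18 embryo, except HOXA10, HOXA11 and HOXD1 (highest in the first E18 embryo) and HOXA4 (no bar).

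Detection did not run strictly from low to high paralogue number within a region. Where a member was detected, the next lower described member of its cluster was detected too in 74.7% of HOXB cases and 56.9% for HOXC. For HOXA it was 48.4% and for HOXD, without HOXD8 and HOXD11, 41.4%. The reverse share, of the next higher member where a member was detected, was 70.7% for HOXB and 54.2% for HOXC. For HOXA and HOXD it was 53.3% and 48.6%. Both shares count the same pairs, so which is larger depends only on detection of a cluster's lowest and highest members. That comparison says nothing on order between them. With HOXA4 detected in 0 regions, all 19 regions with HOXA5 counted against the first HOXA share. Both shares also depend on how widely members were detected. Regions with every member from the lowest one up to the highest detected one numbered 13 of 80 for HOXB, 0 of 54 for HOXA, 3 of 69 for HOXC and 0 of 36 for HOXD. Over all regions HOXA4 was detected in 0 and HOXD1 in 2, so the counts of 0 for HOXA and HOXD were nearly fixed in advance. In the second E18 embryo HOXA13 was the highest detected HOXA member in 19 of 35 regions, while HOXA2 was detected in 7 and HOXA4 in 0. By summed TPM, paralogues 9 to 13 held 47.6% in the second E18 embryo, 19.8% in the first E18 embryo and 8.54% in the E20 embryo. Paralogues 4 to 8 held 40.9%, 60.1% and 71.98% in the same order, and the 7 members with paralogue numbers 1 to 3 held 11.5%, 20.1% and 19.5%. Without the same 6 regions of the second E18 embryo, paralogues 9 to 13 held 24.7% and paralogues 4 to 8 held 49.6% there. The counting of overlapping genes is uncertain. By RefSeq T2T-MFA8v1.1, whose symbols match 36 of 36 members, 17 members have a span that overlaps another HOX gene (HOXA3 with HOXA4, HOXA5 and HOXA6, and HOXC4 to HOXC10 among themselves, for example). How reads were split between them, and whether strand was used, is not given in the sources used here.

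The members that led the regions with the highest HOX sums differed between embryos. Section 5 sector 5 of the second E18 embryo had 957 TPM over 32 detected members, led by HOXA10 (159 TPM), HOXA9 (140 TPM) and HOXA13 (86.9 TPM). Section 6 sector 7 of that embryo came next, with 671 TPM over 31 detected members, followed by section 3 sector 5 with 612 TPM. In section 3 sector 5 HOXA10 was at 122 TPM, HOXA13 at 108 TPM and HOXD13 at 58.2 TPM. COL3A1, a fibrillar collagen of mesenchyme, was at 522, 198 and 2155 TPM in these 3 regions, against a median of 3.47 in the second E18 embryo. COL3A1 did not rank regions as HOX did: section 6 sector 8 had it at 591 TPM with a HOX sum of 137 TPM. CDX2 was at 57.3, 88.2 and 2.96 TPM in the same 3 regions. The yolk sac endoderm score of section 6 sector 7 was 1.95 SD. The highest region of the first E18 embryo, section 3 sector 1, was led by HOXC8 (180 TPM) and HOXB6 (50.6 TPM), with COL3A1 at 926 TPM. The highest of the E20 embryo, section 7 sector 4, was led by HOXB2 (112 TPM) and HOXC8 (34.2 TPM), with COL3A1 at 1309 TPM against an embryo median of 524. That region also had the highest level of VTCN1, an amnion marker, of all 86 regions (965 TPM), and its amnion score was 3.70 SD beside a mesenchyme score of 1.22 SD.

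Each member was then set against scores of 7 marker lists, none of which holds a HOX gene. A score is the mean of a list's z-scored log2(TPM + 1) values within an embryo, and a slope is the change in log2(TPM + 1) per SD of the score, from a limma fit over 15216 genes with embryo as a block. A gene entered when 10 or more regions had it at a TPM of 1 or above, as 30 of the 36 members did. HOXA2, HOXA4, HOXC11, HOXC12, HOXD1 and HOXD12 did not. The adjusted p-values (Benjamini-Hochberg over all genes, threshold 0.05) treat regions of an embryo as independent, which makes them too small.

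With the mesenchyme score (HAND1, FOXF1, collagens and others), 29 of 30 members rose and 0 fell, where 14.8% of all genes rose. HOXC8 had the steepest slope, 1.71 ± 0.11 (SE, limma adjusted p = 1.48e-24). HOXB5 followed with 1.44 ± 0.12, HOXB6 with 1.38 ± 0.12, HOXC6 with 1.23 ± 0.12, HOXA9 with 1.22 ± 0.14 and HOXA13 with 1.16 ± 0.13. HOXB13 did not pass, with a slope of -0.05 ± 0.05. The median slope was 0.63 over the 30 members and -0.02 over all genes. Without the second E18 embryo, 18 members rose. Blood and endothelium markers, which mark the vessels and first blood of the yolk sac, rose with 27 members (12.2% of all genes), and amnion markers with 23 (14%). Without the second E18 embryo the first count was 2 and the second 14. With the epiblast score 25 members fell (13.5% of all genes), and 8 did so without the second E18 embryo. The yolk sac endoderm score called 0 members in limma, 2 at an unadjusted p under 0.05, where 26.7% of all genes passed in either direction.

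**Figure D3:**
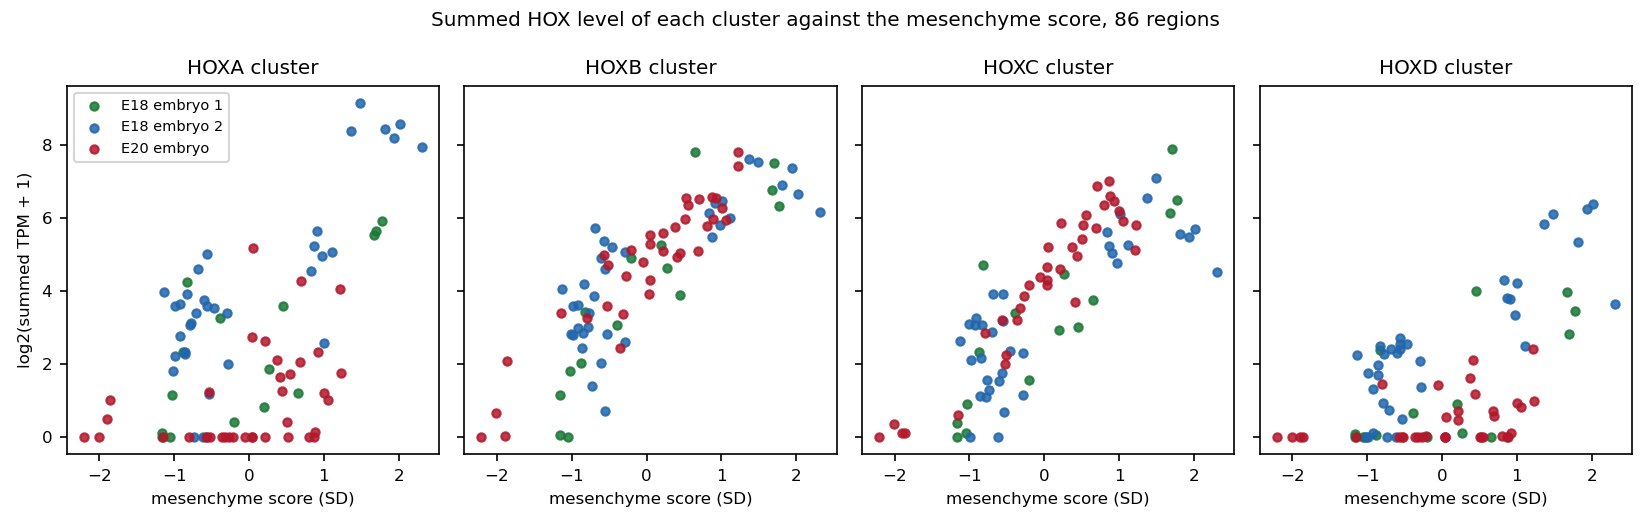
Each point is a region, with its mesenchyme score in SD units on the x axis and log2(summed TPM + 1) of a cluster on the y axis, coloured by embryo. HOXB and HOXC rise along the score in all 3 embryos, while HOXA and HOXD points of the E20 embryo stay low at scores where those of the second E18 embryo are high.

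The scores overlap with each other, so all 7 were also put in 1 model, an alternative added after seeing the data. There the mesenchyme score kept 9 members, HOXB2, HOXB3, HOXB4, HOXB5, HOXB6, HOXB7, HOXC6, HOXC8 and HOXC9 (4.32% of all genes rose), with HOXC8 at 2.24 ± 0.27 and HOXC6 at 1.70 ± 0.28. The score of CDX and other posterior genes had 4, HOXA3, HOXA7, HOXA9 and HOXD9 (0.177% of all genes), with HOXA9 at 0.81 ± 0.18. The blood and endothelium score had 3, HOXA9, HOXA10 and HOXB9 (2.02%). HOXA13 fell with the epiblast score (0.973% of all genes fell) and with the yolk sac endoderm score (0.532%). The amnion and streak scores called 0 members in limma, 8 and 9 at an unadjusted p under 0.05.

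Taken alone, the CDX and posterior score (CDX1, CDX2, CDX4, EVX1, WNT3A, NKX1-2, SP5 and GDF11) had 3 of 30 members that rose. That share was near the 10.1% of all genes, so the count does not set HOX genes apart. HOXA7 rose by 0.35 ± 0.12 per SD (limma adjusted p = 0.0402), HOXA3 by 0.34 ± 0.07 (0.00133) and HOXD9 by 0.29 ± 0.08 (0.0103). HOXA3 was detected in 0 regions of the first E18 embryo, 24 of the second E18 embryo and 1 of the E20 embryo. Without the first E18 embryo HOXA3 and HOXD9 were called, without the E20 embryo HOXA3 alone, and without the second E18 embryo none of the 3, while HOXC8 fell there by 0.99. With the streak score 0 members rose (19.6% of all genes did) and 6 fell (4.48% of all genes): HOXB3, HOXB5, HOXB7, HOXC4, HOXC6 and HOXC8, the last by 0.82 ± 0.19. Without the second E18 embryo HOXC8 alone was called, and without the E20 embryo HOXC4 alone.

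Slopes on the mesenchyme score were fitted per embryo and compared by a moderated F test, also added after seeing the data. They differed for 8 of 30 members, where 1.71% of all genes did. HOXA10 had slopes of 0.50 in the first E18 embryo, 1.91 in the second E18 embryo and 0.23 in the E20 embryo, HOXA13 of 1.29, 1.93 and 0.06, and HOXA9 of 1.22, 1.88 and 0.35. HOXA5, HOXA11, HOXD4, HOXD10 and HOXD13 were the others, each highest in the second E18 embryo. Some were near absent elsewhere, which limits the slope there. In the same order of embryos, HOXD4 was detected in 2, 16 and 0 regions and HOXD13 in 1, 13 and 1. HOXA5 was detected in 1, 15 and 3, HOXD10 in 2, 9 and 1 and HOXA13 in 4, 19 and 1. For such members a difference in slope cannot be told apart from a lack of detection. They also passed the filter mainly through the second E18 embryo, where their slopes were highest. The count of 8 therefore cannot be weighed against the share of all genes. HOXB5 had slopes of 1.53, 1.38 and 1.47 and HOXC8 of 1.90, 1.41 and 1.99, and neither passed that test. The fit assumes 1 residual spread for the 3 embryos, and on simulated data this model made more false calls than its threshold allows. Without the second E18 embryo it called 1 member (HOXA13), and without the E20 embryo 1 (HOXA10). Slopes on the CDX and posterior score differed between embryos for HOXA3 and HOXC8 (4.21% of all genes). HOXA3 was detected in 0, 24 and 1 regions in the same order of embryos, so the limit of detection holds for it too. Slopes on the streak score differed for 0 of 30 members in this F test, the lowest adjusted p being 0.18 (3.46% of all genes).

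**Figure D4:**
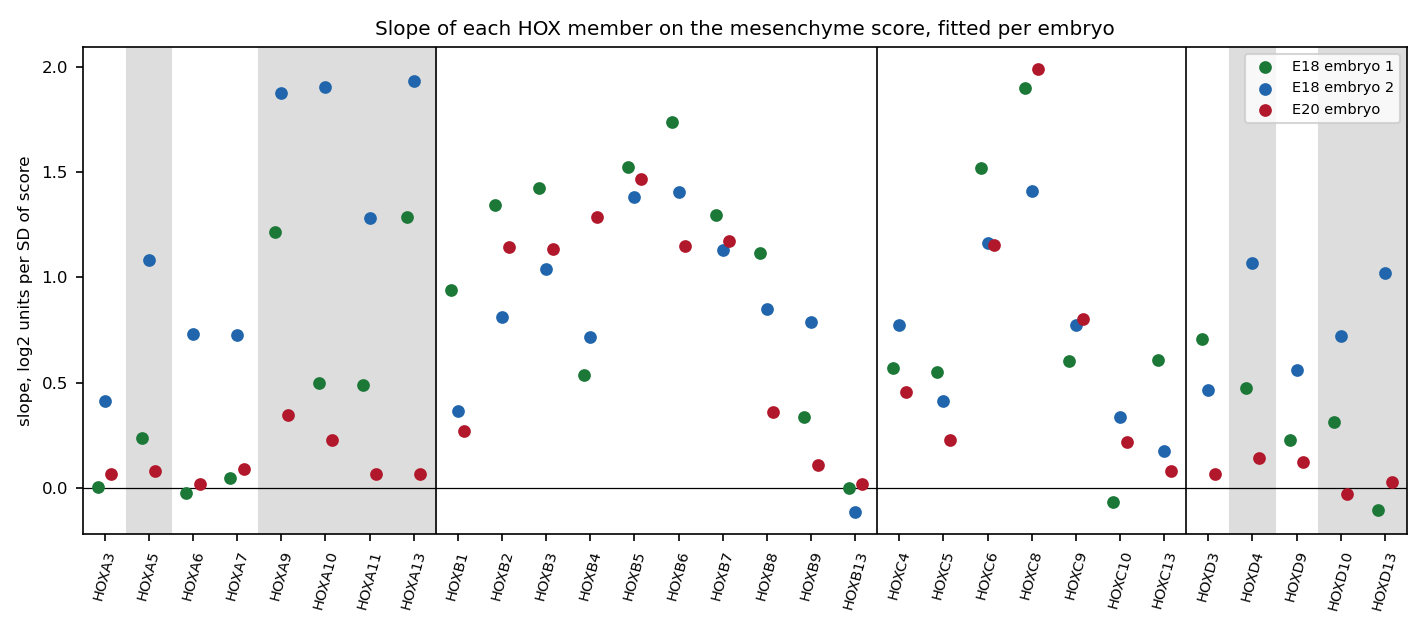
Points give the slope of each member on the mesenchyme score in log2 units per SD, fitted in each embryo, with grey bands where slopes differed between embryos (adjusted p at most 0.05). HOXA9, HOXA10 and HOXA13 spread from 0.06 to 1.93, while HOXB5 and HOXB7 lie close together.

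The stage comparison set the E20 embryo against 2 E18 embryos, with embryo means as the units and 1 residual degree of freedom. It called 0 of 30 members in limma, 1 at an unadjusted p under 0.05, where 11.4% of all genes passed. That member, HOXC8, was higher at E20 by 1.48 ± 0.64 on the log2(TPM + 1) scale (limma adjusted p = 0.12). After quantile normalization HOXB4 and HOXC8 passed, higher by 1.55 and 1.85, and with E20 sections 1 to 5 only HOXC8 passed, by 1.93. With E20 sections 6 and 7 only, HOXC8 did not pass and its difference was -0.084. Of the marker lists, 12 of 13 yolk sac endoderm genes tested and 6 of 15 mesenchyme genes were higher at E20, and 8 of 10 epiblast genes lower; their part in the HOX values was not tested. The median over the members was -0.36, beside -0.44 over all genes.

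Along the sections of an embryo 0 of 30 members had a trend in limma, 0 at an unadjusted p under 0.05, where 10.7% of all genes passed. Along the sectors of a section 9 members rose and 0 fell, where 2.48% of all genes rose: HOXA3, HOXA9, HOXA13, HOXB2, HOXB3, HOXB5, HOXB6, HOXB9 and HOXD4. HOXB5 rose by 1.94 ± 0.51 from the first to the last sector (limma adjusted p = 0.021). In the same fit 9 of 15 mesenchyme markers, 7 of 14 blood and endothelium markers and 3 of 13 amnion markers rose, and their part in the HOX trend was not tested. Without the second E18 embryo the trend called 0 members and 0 of all genes, and without the first E18 embryo it called 19 members.

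In the E20 embryo, sections 6 and 7 (8 regions) were compared with sections 1 to 5 (28 regions) by section means. HOXC8 had a lowest, median and highest TPM of 0.46, 22.1 and 100.1 in sections 1 to 5 and of 0, 4.86 and 34.2 in sections 6 and 7. HOXB4 went from 0, 5.56 and 33.1 to 0, 0 and 20.6. Region values overlapped for both genes, while both section means of the later sections lay below all 5 of the others. HOXC8 was lower in sections 6 and 7, with a difference of -1.94 ± 0.34 (limma adjusted p = 0.0055), and HOXB4 with -1.45 ± 0.45 (adjusted p = 0.045). They were the only members of 30 called lower, where 8.46% of all genes were lower.

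In the other direction, 4 of 30 members were higher in sections 6 and 7, where 23.7% of all genes were. HOXB1 was higher by 1.10 ± 0.20, HOXC13 by 0.75 ± 0.09, HOXC5 by 0.65 ± 0.10 and HOXA13 by 0.40 ± 0.11. They rest on few regions: HOXB1 and HOXC5 were above 0 in 5 of 8 each, with highest values of 12.1 and 7.58 TPM, HOXC13 in 4 of 8, with 3.62 TPM, and HOXA13 in 2 of 8, with 4.88 TPM. HOXA13 and HOXC13 were listed at 0 in all 28 regions of sections 1 to 5. In the main fit neither direction was called more often among the 30 members than among all genes, so the counts do not set HOX genes apart. After quantile normalization 2 members were higher and 4 lower.

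**Figure D5:**
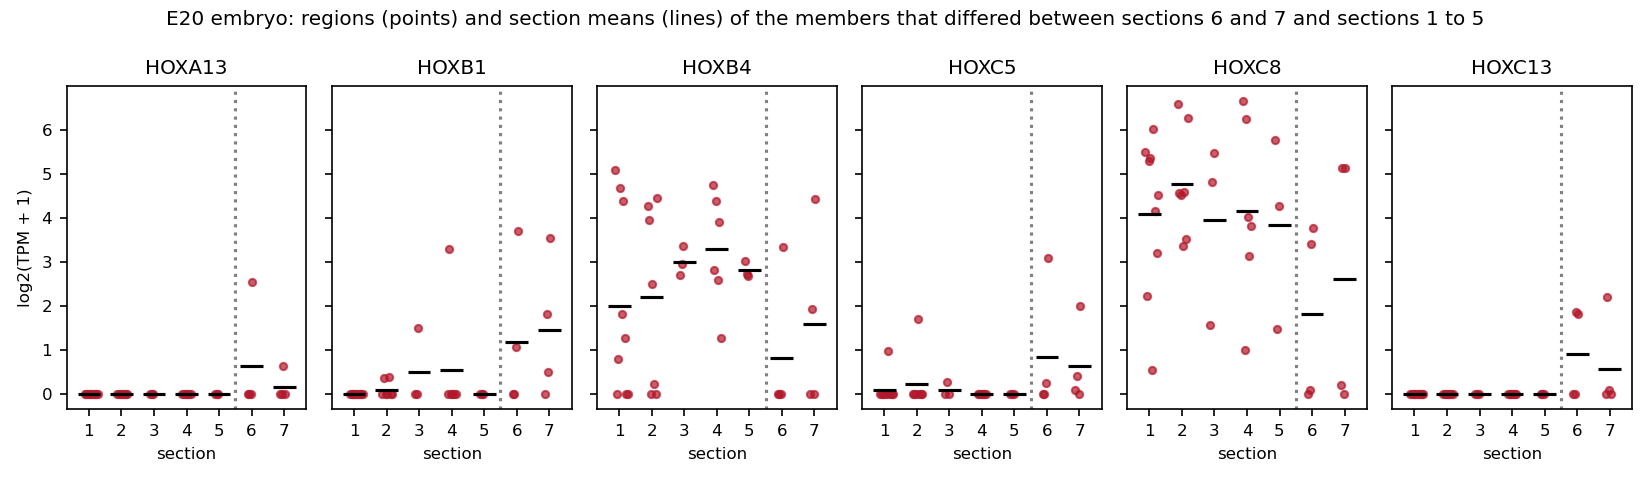
Points are regions and lines section means of log2(TPM + 1) in the E20 embryo, with a dotted line between section 5 and section 6. HOXC8 and HOXB4 have lower means to the right of it, and the other 4 members have section means of 0 to 0.55 to its left.

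Other markers moved with this comparison. Of the 15 mesenchyme markers 9 were lower and 2 higher in sections 6 and 7, and their summed TPM had a lowest, median and highest value of 342, 2909 and 11451 in sections 1 to 5 and of 5.44, 347 and 4135 in sections 6 and 7. Yolk sac endoderm markers were lower for 13 of 13 tested, and epiblast markers higher for 8 of 10. These sections were split because earlier results of these data separated them by endoderm and epiblast genes. The counts for those lists therefore follow from the choice of split and are no separate result. Streak markers were higher for 12 of 14 and amnion markers for 10 of 13. HOXA13, HOXB1 and HOXC5 had their highest E20 value in section 6 sector 4, whose VTCN1 level was 758 TPM and whose amnion score was 3.76 SD, and the part of such cells was not tested. With the mesenchyme score of the section as a covariate, 0 members were called in limma, 1 at an unadjusted p under 0.05, and 0 of all 15216 genes. In that fit the differences of HOXB4 (0.86) and HOXA13 (-0.10) turned sign. The summed HOX level was 4.03 ± 0.73 (SD, n = 2 sections) in sections 6 and 7 and 5.98 ± 0.32 (n = 5) in sections 1 to 5, as log2(TPM + 1), a difference of -1.95. It was the lowest of the 21 ways to pick 2 of 7 sections. The exact two-sided permutation p was 0.095 when the smaller tail is doubled, the smallest that rule can give, and 0.048 when splits are ranked by absolute difference, so the side of 0.05 depends on the definition. In tests of any difference between sections of 1 embryo, limma called 0 of 30 members in the first E18 embryo, the second E18 embryo and the E20 embryo, with 0, 0 and 1 at an unadjusted p under 0.05, where 0%, 0% and 18.5% of all genes passed.

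Neighbouring HOX members varied together more than other pairs by their medians. Pearson correlations over 86 regions, with embryo means removed, are descriptions, since regions share embryos, TPM values share a total and some neighbours overlap in span. Neighbours in a cluster had a median r of 0.62 (23 pairs), other pairs of a cluster 0.48 (81 pairs), members of equal paralogue number 0.43 (29 pairs) and the remaining pairs 0.41 (302 pairs). HOXA9 and HOXA10 had the highest value, 0.87, and the lowest of the neighbours was 0.0033. Medians also varied by cluster, with 0.63 within HOXA, 0.50 within HOXB, 0.38 within HOXC and 0.56 within HOXD. Pairs of a HOXA and a HOXD member had a median of 0.55. The genes most like the summed HOX level, of 8818 with a mean TPM of at least 5, were TGFBI (r = 0.89), PMP22 (0.86), COL3A1 (0.86), TPM1 (0.86), COL5A2 (0.85), COL1A2 (0.85), ADAM12 (0.84), MMP28 (0.84), FOSL2 (0.84) and TEK (0.84).

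With the mesenchyme score 14.8% of all genes rose and 16.8% fell. Among 8 HOX cofactors described here, MEIS1 rose with the mesenchyme score by 1.66 ± 0.14 per SD and MEIS2 by 1.33 ± 0.11, while PBX3 fell by 0.30 ± 0.07. Of 8 CDX and posterior genes, CDX2 rose with that score by 0.56 ± 0.16, and GDF11, NKX1-2 and SP5 fell. CDX1 had a highest TPM of 0.23 in the first E18 embryo, 23.2 in the second E18 embryo and 2.95 in the E20 embryo. Of 13 retinoic acid genes tested, 3 rose and 3 fell, with CYP26A1, which degrades retinoic acid, falling by 1.62 ± 0.20. ALDH1A2, which makes it, reached 11.03, 52.7 and 23.5 TPM. Of 17 Polycomb and trithorax genes tested, 1 rose and 4 fell.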

How the data were processed

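The authors deposited TPM values per gene for 86 regions. Per the submitters' processing notes, fastp, HISAT2 and StringTie were used, and no genome build is named there, which is why coordinates are left out. Columns summed to between 495547 and 777987 TPM, 0 columns were left unused, and ACTB and GAPDH were at 0 in 0 regions. Values were tested as log2(TPM + 1) in limma 3.58.1 under R 4.3.3 (moderated tests with an intensity trend), keeping a gene when 10 or more regions reached a TPM of 1, and checked on simulated data. Regions were grouped by the stage, embryo, section and sector in the labels. By the naming rule every HOX member described could be named, and those at a mean TPM of at least 1 in an embryo or called could be given in full. Each of the other members is given by its highest TPM or its detection alone, apart from HOXB13, whose slope is given because it did not pass. Also named are the 10 genes most like the summed HOX level. The members, lists and comparisons were chosen with earlier results of these data known. The settings tried besides were a pseudocount of 0.1, all genes, a filter at a TPM of 5 in 20 regions, quantile normalization, other blocks and covariates, and leaving out embryos, sections or the 6 regions of the second E18 embryo with the highest HOX sums. Further settings left out mitochondrially encoded genes or, for the stage comparison, took medians over regions. The mitochondrially encoded genes summed to a median of 101116 TPM in the first E18 embryo, 201574 in the second E18 embryo and 124546 in the E20 embryo. Pictures were drawn with matplotlib. HOXD8 and HOXD11 are not analysed here, and 1 of the 37 rows that match the HOX rule and 1 cofactor are not reported here.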

Additional observations from a re-analysis of the deposited data

Results flagged for a closer look

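Slopes on the mesenchyme score differed between the 3 embryos by the moderated F test of limma for HOXA13 (adjusted p = 2.26e-08), HOXA10 (6.07e-06), HOXD4 (6.07e-06), HOXA11 (0.000271), HOXA9 (0.000287), HOXD13 (0.000517), HOXA5 (0.00189) and HOXD10 (0.00791). All 8 had their highest slope in the second E18 embryo. HOXA5, HOXA13, HOXD4, HOXD10 and HOXD13 were detected in few regions of the other embryos, which limits their slopes there. Of all genes 1.71% differed, and on simulated data the model made more false calls than its threshold allows. Without the second E18 embryo it called 1 member (HOXA13), and without the E20 embryo 1 (HOXA10). Slopes on the CDX and posterior score differed by the same test for HOXA3 (adjusted p = 0.00182) and HOXC8 (0.0445), where 4.21% of all genes did. HOXA3 had slopes of 0.04, 0.73 and 0.0025 in the first E18 embryo, the second E18 embryo and the E20 embryo. It was detected in 0, 24 and 1 regions in that order, which limits its slopes outside the second E18 embryo. HOXC8 had slopes of -0.60, 0.37 and -1.14 in the same order. Each embryo is 1 animal, and regions within it were treated as independent.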

How the results depend on the processing

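No paired analysis was possible because section and sector numbers do not pair regions across embryos. Leaving out 1 embryo gave 18 to 28 members called with the mesenchyme score (29 with all embryos), 2 to 27 with blood and endothelium (27), 14 to 27 with amnion (23), 8 to 28 with epiblast (25), 1 to 2 with CDX and posterior (3), 1 to 6 with streak (6), 0 to 2 with yolk sac endoderm (0), 0 to 19 for the sector trend (9) and 1 to 8 for slopes compared between embryos (8). With all 7 scores in 1 model these were 9 for mesenchyme, 3 for blood and endothelium, 0 for amnion, 1 for epiblast, 0 for streak and 1 for yolk sac endoderm. With the filter at a TPM of 5 in 20 regions 8 members were left, of which 8 were called for mesenchyme, 8 for blood, 8 for amnion, 8 for epiblast, 0 for CDX, 4 for the sector trend, 2 for E20 sections 6 and 7 (6 otherwise) and 0 for slopes between embryos. The 8 left by that filter were HOXB2 to HOXB7, HOXC6 and HOXC8. None of the members called in the main setting for CDX or for mesenchyme slopes between embryos was among them. The 0 for each therefore says nothing about those members. Slopes between embryos gave 5 with a pseudocount of 0.1. CDX gave 1 after quantile normalization and 1 with sections as blocks, streak 3 with sections as blocks, and yolk sac endoderm 1 with the number of genes as a covariate and 1 after quantile normalization. The stage comparison called 1 with E20 sections 1 to 5 only and 2 after quantile normalization, and its median of -0.36 became -0.99 with a pseudocount of 0.1, -0.0030 after quantile normalization, 0.32 with the stricter filter and -0.60 to -0.084 without 1 E18 embryo. With the mesenchyme score as a covariate, E20 sections 6 and 7 called 0. Share of members found with the next lower one: HOXB 80.9% above 0 and 64.9% at a TPM of at least 5, HOXC 64.7% and 44.9%.

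Directions turned for some members. In the model of 7 scores the mesenchyme slope was -0.27 for HOXA10, -0.20 for HOXA6, -0.095 for HOXB9, -0.049 for HOXC10 and -0.27 for HOXD13, and the streak slope of HOXC8 was 0.054. Without 1 embryo the mesenchyme slope of HOXD13 lay between -0.017 and 0.74 and the sector slope of HOXA13 between -0.21 and 2.57, the lower value of each without the second E18 embryo. With the mesenchyme covariate, E20 sections 6 and 7 gave -0.10 for HOXA13 and 0.86 for HOXB4. With E20 sections 6 and 7 only, the stage difference of HOXC8 was -0.084. Of the other values for single members, 511 kept direction and side of the threshold, 105 lost it and 2 gained it. The cause was not tested. The difference in summed HOX level between E20 sections 6 and 7 and sections 1 to 5 (-1.95) lay between -2.47 and -1.44 without 1 section.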
